A study of Homo sapiens with 6 samples.

Results

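The genes described here encode the DEAD and DEAH box proteins, a family of RNA helicases, measured in the human prostate cancer line LNCaP. They were taken by gene symbol, DDX or DHX followed by a number and at most 1 letter, on the assembled chromosomes and without pseudogenes. In all 73 rows of the deposited counts met the symbol pattern. Of these, 17 rows on other scaffolds held 0 reads and were left out, as were 1 pseudogene row and 1 row excluded by name. This left 54 genes of 63299, 38 named DDX and 16 named DHX. Each was protein coding, and they lay on 18 chromosomes.

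The labels describe a short hairpin RNA against MEP50 (gene WDR77), the partner protein of PRMT5, an arginine methyltransferase, and differ in doxycycline, so both groups are taken here to carry the hairpin. RNA sequencing covered 3 libraries labelled MEP50 KD (Dox+), called knockdown here, and 3 labelled No KD (Dox-), called control. Among these libraries doxycycline was not given to cells lacking the hairpin, so effects of the drug and of the knockdown cannot be told apart. The dose, the time in doxycycline and whether the line was 1 clone are not given in the sources used here. The series calls the libraries biological replicates, and nothing says which came from separate cultures, so p-values measure the spread between these libraries.

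DEAD and DEAH box proteins bind RNA through a pair of RecA-like domains and use ATP to separate short duplexes or to strip and rearrange proteins on RNA. Their names are the amino acid letters of motif II, the stretch of the first domain that takes part in ATP hydrolysis. DEAD box proteins open a duplex locally, while DEAH box proteins move along a strand and are often switched on by proteins with a G-patch. They act at every step of an RNA's life, in splicing, nuclear export, ribosome assembly, translation and decay, and a few detect viral RNA. PRMT5 with MEP50 methylates arginines of the spliceosomal Sm proteins and of many other RNA-binding proteins.

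Motif II was read from the in-frame codons of each gene's longest coding transcript in GENCODE 29 and was found for all 54 genes. The codons spelled DEAD in 29 genes and DEAH in 9, among them DDX11. The other 16 genes spelled variants of these letters. DEVH was read in 6 genes (DDX60, DDX60L, DHX29, DHX30, DHX34 and DHX57). DECD in DDX39A and DDX39B, DECH in DDX58 and DHX58, DEIH in DHX9 and DHX36, and DEVD in DDX21 and DDX50 were each read in 2 genes. DESD was read in DDX52 and DDIH in DHX32. The 30 bases around the motif are shown for the genes to which the results below return, from the reference genome (GRCh38), 5′ to 3′ on the coding strand, with the 12 bases of motif II in capitals. Each window lies within 1 coding exon.
DDX5, DEAD, chr17:64503236-64503265, minus strand: cttgtccttGATGAAGCAGATagaatgctt
DDX23, DEAD, chr12:48833415-48833444, minus strand: gtggttctgGATGAGGCAGATaggatgatt
DDX19A, DEAD, chr16:70366192-70366221, plus strand: tttgttctgGATGAGGCTGATgtcatgata
DDX19B, DEAD, chr16:70329399-70329428, plus strand: tttgttctgGATGAGGCTGATgtcatgata
DDX39A, DECD, chr19:14410999-14411028, minus strand: tttgtgctgGACGAGTGTGACaagatgctg
DDX39B, DECD, chr6:31536510-31536539, minus strand: tttattttgGATGAATGTGATaagatgctt
DDX21, DEVD, chr10:68967119-68967148, plus strand: gttgtcctgGATGAAGTGGACcagatgttg
DHX9, DEIH, chr1:182867008-182867037, plus strand: gtaattgtaGATGAAATACATgaaagagat
DHX57, DEVH, chr2:38854062-38854091, minus strand: atcattgttGATGAAGTTCATgagaggaca
DDX58, DECH, chr9:32488023-32488052, minus strand: atgatatttGATGAATGCCACaacactagt
The windows of DDX19A and DDX19B were identical over all 30 bases. Those of DDX39A and DDX39B shared 23 of 30 bases, with different codons for the same letters. DDX5 and DDX17 shared 24 of 30, DDX21 and DDX50 shared 26, DDX3X and DDX4 shared 26, and DDX60 and DDX60L shared 27.

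The knockdown libraries held 18568002, 36001219 and 20682236 counts for replicates 1, 2 and 3, and the control libraries 27509105, 29943841 and 36234784. The helicase genes took 0.676% to 0.714% of a knockdown library's counts and 0.663% to 0.742% of a control library's. WDR77 held 15.05, 14.0 and 12.7 CPM (counts per 1000000 scaled reads of the library) in knockdown and 49.3, 47.2 and 36.7 CPM in control, a log2 fold change of -1.67 (SE 0.16, adjusted p 0.00131, edgeR quasi-likelihood test). The markers of luminal prostate cells fixed for LNCaP were abundant, with a summed level of 4305 to 4891 CPM in knockdown and 7411 to 8757 CPM in control. Markers of other cell types were summed in the same way, and in bulk RNA fewer cells of a type and less RNA per cell cannot be told apart. Basal cell markers, of which KRT5 was at 0 in each library, reached 0 to 0.229 CPM in knockdown and 0.666 to 1.11 in control, and immune markers 0.366 to 0.803 and 0.566 to 1.37. Stroma markers reached 10.5 to 15.7 and 6.48 to 14.4 CPM, endothelium markers 10.4 to 25.9 and 18.5 to 39.1, and neuroendocrine markers 12.9 to 22.1 and 23.0 to 32.0. Most of each of these sums came from a single gene. Means over all libraries were 10 CPM for COL1A1 (stroma), 23.6 for VWF (endothelium) and 20.3 for ENO2 (neuroendocrine). The other markers of these lists had means of at most 2.2 CPM. The part of these shifts in the results below was not tested.

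Levels were compared between genes as CPM divided by the gene length in kilobases that the deposited table gives (RPKM). DDX21, a nucleolar helicase of ribosomal RNA transcription and processing, had the highest level. It held 128, 141 and 135 RPKM in knockdown and 144, 117 and 131 RPKM in control. DDX5, a coactivator of transcription that also acts in splicing and microRNA processing, held 123, 111 and 118 RPKM in knockdown and 119, 102 and 120 in control. The ranges of these genes over libraries overlapped, while within each of the 6 libraries DDX21 stood above DDX5. DHX9, also called RNA helicase A, held 77.8, 63.8 and 60.7 RPKM in knockdown and 102, 73.2 and 73.1 in control. Below DHX9 came DDX17, the paralog of DDX5, at a mean of 60.3 RPKM over the 6 libraries, DDX3X at 51.5, DHX15 at 47.6 and DDX6 at 42.1. From DHX9 to DDX6, neighbours in this order overlapped in their ranges. Within a library DHX9 stood above DDX17 and DDX17 above DDX3X in 6 of 6, whereas DDX3X stood above DHX15, and DHX15 above DDX6, in 4 of 6. These 7 genes held 49.3% of the summed RPKM of the family.

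**Figure D1:**
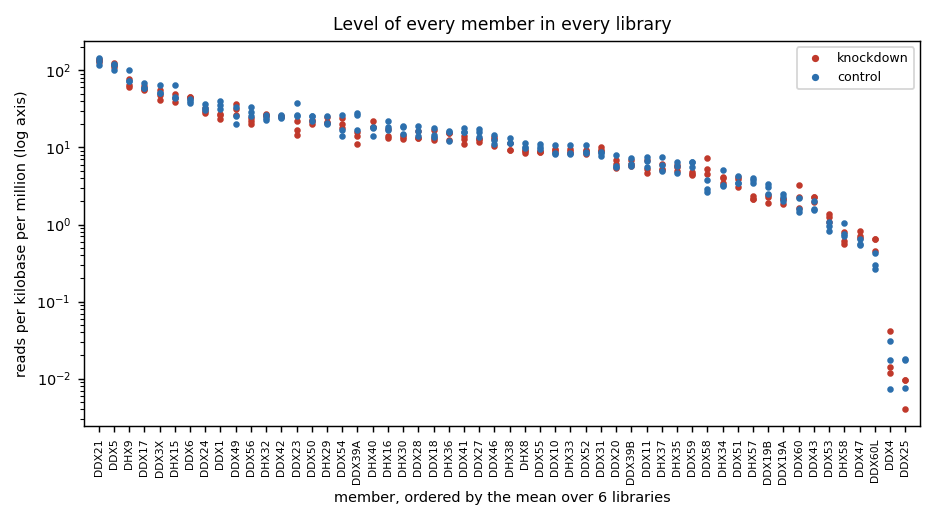
RPKM, the level per length (log axis), of the 54 DEAD and DEAH box genes, ordered by the mean over 6 libraries, with 1 point per library (red, knockdown; blue, control). Levels run from 132 RPKM for DDX21 down to 0.0111 RPKM for DDX25, and the red and blue points overlap in range for most genes.

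The median level of the family was 11.8 RPKM, higher than that of 77.6% of all tested genes. Mean levels of at least 10 RPKM were reached by 28 genes, and 5 genes stayed under 1 RPKM. DDX47 was among these 5, at 0.66 RPKM. It shares 36.5% of its exon bases with APOLD1, and how reads over both were counted is not given, so its level is uncertain. The lowest 2, DDX4 (VASA) and DDX25, are helicases of the germ line. DDX4 had 3, 2 and 1 reads in knockdown and 3, 2 and 1 in control, and DDX25 had 2, 4 and 1 reads in knockdown and 5, 6 and 3 in control. At this depth no difference in either gene was detectable, and both failed the filter on low counts. The other 52 genes were tested.

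In the edgeR test without a replicate block over all 21101 tested genes (adjusted p under 0.05), DDX58, which encodes the viral RNA sensor RIG-I, rose, and DHX57 fell. That is 1.92% of the 52 tested helicase genes in each direction. Over all tested genes 2.72% rose and 4.88% fell, so neither share was above the background. At an unadjusted p under 0.05 there were 13 helicase genes, or 25%, beside 24.7% of all tested genes. DESeq2 called 2 higher and 3 lower (DDX60L, DDX39A and DDX23 in addition), where it called 4.13% of all its tested genes higher and 7.38% lower. The calls of limma-voom were 1 and 1, beside 2.81% and 4.98% of all tested genes. The unadjusted counts given for the groups below are to be read beside the same 24.7%. With upper quartile scaling the calls over all genes split into 894 higher and 722 lower, in place of 574 and 1029. The log2 fold changes of the 52 genes ran from -0.81 to 0.86 and were within 0.25 of 0 for 31 genes. For 46 of the 50 genes without a call the 95% interval of the log2 fold change lay between -1 and 1. The standard errors ran from 0.11 to 0.27.

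The replicate numbers were taken to pair the libraries, from correlations in these same data that are given with the processing. Blocking the fit on the replicate called more genes. With the block 3 helicase genes rose (5.77%) and 11 fell (21.2%), against 11.2% and 14.9% of all tested genes. The genes that rose were DDX58, DDX60L and DDX60. Those that fell were DDX39A, DHX57, DDX23, DDX1, DDX19B, DDX59, DDX56, DDX41, DHX16, DHX30 and DDX27. The share that fell lay close to that of tested genes of like abundance. Over the 9781 genes with a mean CPM between the helicases' 10th and 90th percentiles, 24.0% fell with the block.

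The ranges of the groups did not overlap for 17 of the 52 genes. Of these, 5 were higher in every knockdown library (DDX58, DDX60L, DDX6, DDX31 and DDX47), or 9.62%, and 12 were lower, or 23.1%. Such genes made up 13.4% and 17% of all tested genes, and 11.5% and 24.5% of the tested genes of like abundance. Within the replicate pairs, 22 genes (42.3%) were lower in knockdown in all 3 pairs, and 10 (19.2%) were higher. Over all tested genes these shares were 28.9% and 27.2%. The helicase genes' median of the log2 fold changes was -0.09, beside 0.00 for all tested genes and -0.08 for the tested genes of like abundance. Upper quartile scaling moved the median of all tested genes to 0.12 and that of the helicase genes to 0.03, and the distance between these medians was -0.09 under both scalings. The same shift of 0.12 applies to every group median below, so medians between -0.12 and 0 turned positive under that scaling.

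**Figure D2:**
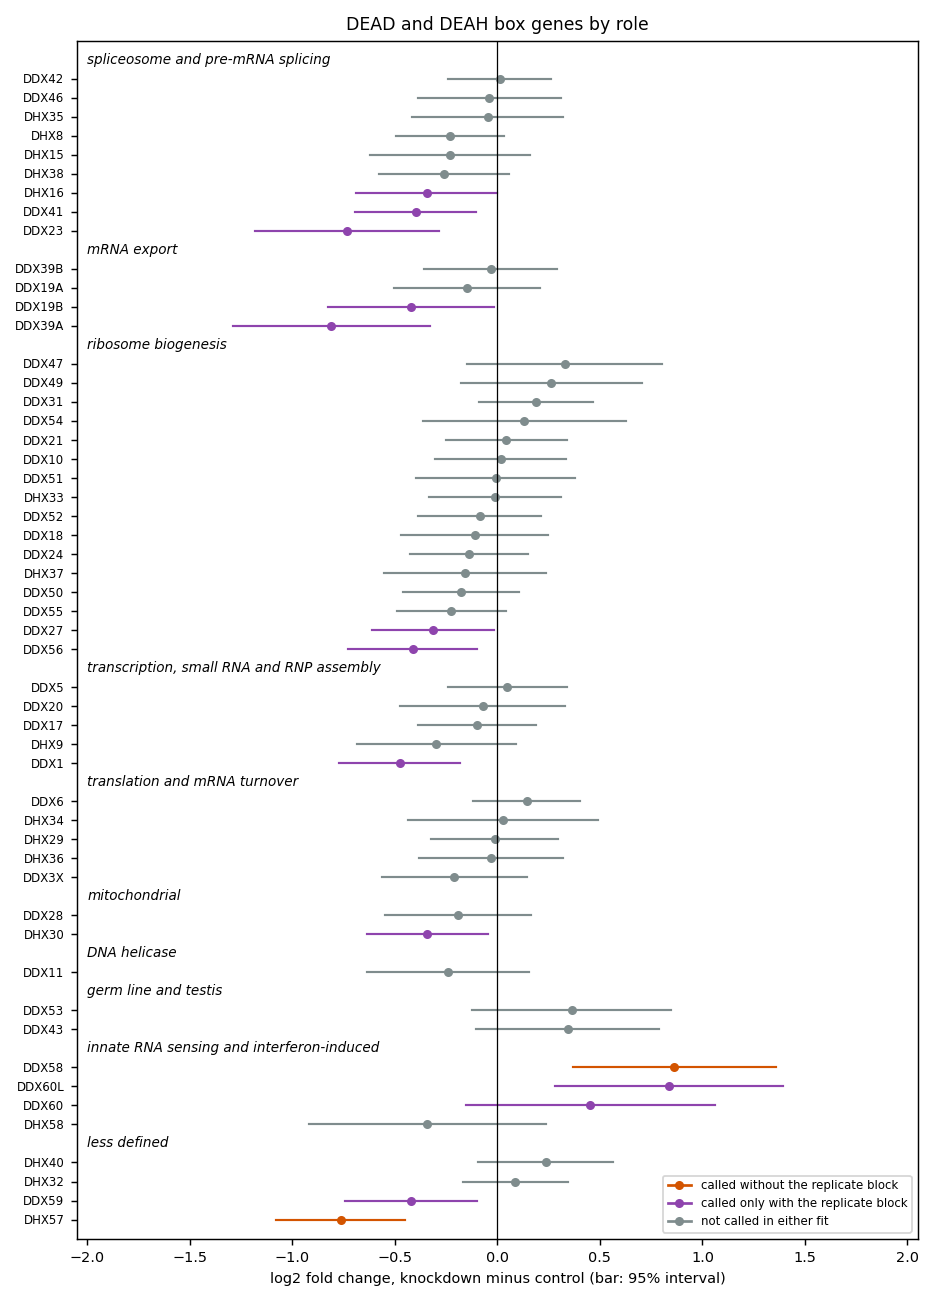
Log2 fold change, knockdown minus control, of the 52 tested DEAD and DEAH box genes, grouped by role, with the 95% interval from the edgeR fit without the replicate block as a bar. Called means an adjusted p under 0.05. DHX57 and DDX58 (orange) were called without the block, 12 further genes (purple) were called with the block, and the innate sensing group holds the highest values.

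The 3 highest log2 fold changes of the family belonged to genes of innate immunity. DDX58 (ENSG00000107201.9, chr9:32455705-32526324, hg38) encodes RIG-I, which binds viral RNA with a free triphosphate end and signals through MAVS to switch on interferon. It held 31.3, 22.8 and 19.5 CPM in knockdown and 16.6, 11.5 and 12.4 CPM in control. Each knockdown library stood above each control library, and replicate 1 was the highest in both groups. The mean rose 1.82-fold, from 13.5 ± 2.70 to 24.6 ± 6.09 CPM (SD, n = 3). The fitted log2 change was 0.86 (SE 0.22, adjusted p 0.0474, edgeR) and the log2 differences of the 3 pairs were 0.92, 0.99 and 0.65. The call was close to the threshold. Of the 6 fits that each left out 1 library, only the one without control replicate 1 kept it. Without knockdown replicate 1, 2 or 3 the adjusted p was 0.119, 0.117 and 0.0571, and without control replicate 2 or 3 it was 0.0944 and 0.138, with log2 fold changes from 0.64 to 1.00. With the replicate block the adjusted p was 0.000381.

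DDX60 and DDX60L are neighbours on chromosome 4 and paralogs that interferon induces. DDX60L (ENSG00000181381.13, chr4:168356735-168537786, hg38) held 7.93, 7.89 and 5.59 CPM in knockdown and 5.16, 3.23 and 3.63 CPM in control, without overlap between the groups. Its log2 fold change of 0.84 (SE 0.25) missed the threshold without the block (adjusted p 0.0727, edgeR) and passed it with the block (adjusted p 0.00512). DDX60 (ENSG00000137628.16, chr4:168216293-168318807, hg38) held 22.2, 15.4 and 11.1 CPM in knockdown and 14.98, 10.6 and 9.93 CPM in control. The groups overlapped, while each pair was higher in knockdown, by 0.57, 0.54 and 0.16 on the log2 scale. The fit gave 0.45 (SE 0.27, adjusted p 0.334 without and 0.0390 with the block, edgeR).

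DHX58, which encodes LGP2, the regulator of RIG-I signalling without the signalling domains of RIG-I, did not pass in either fit. It held 3.11, 2.35 and 2.15 CPM in knockdown and 2.72, 3.997 and 2.88 CPM in control. Only replicate 1 was higher in knockdown, and the log2 fold change was -0.34 (95% interval -0.92 to 0.24, adjusted p 0.45, edgeR). The remaining receptor of this class, IFIH1 (MDA5), which carries another name, had means of 22.3 ± 2.73 CPM in knockdown and 21.5 ± 4.03 CPM in control and an adjusted p of 0.882 (edgeR). Among the 4 innate genes of the family 1 rose without the block and 3 rose with it, where 2.72% and 11.2% of all tested genes did. Their median log2 fold change was 0.65.

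**Figure D3:**
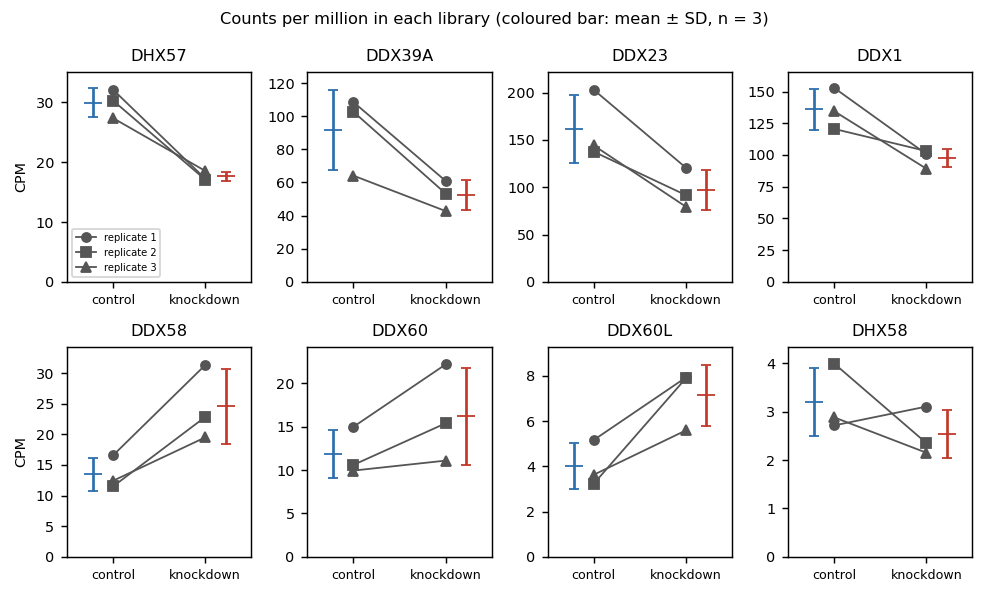
CPM in each library for 4 genes with negative log2 fold changes (top; DHX57, DDX39A, DDX23 and DDX1) and the 4 innate genes (bottom), with libraries of the same replicate number joined and the mean ± SD (n = 3) beside them. All lines of the top row fall from control to knockdown, those of DDX58, DDX60 and DDX60L climb, and DHX58 has 1 line of 3 that climbs.

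Of the genes that act with RIG-I, 11 were tested (the ubiquitin ligases TRIM25, RNF135 and TRAF6, the adaptor MAVS and others). In edgeR 0 passed without the block (1 at an unadjusted p under 0.05, 0 in DESeq2 and 0 in limma-voom). With the block 2 fell (18.2%) and 0 rose, beside 14.9% and 11.2% of all tested genes. Of the tested genes with abundance like the helicases' 24.0% fell with the block. MAVS, the adaptor itself, had 153 ± 18.9 CPM in knockdown and 205 ± 6.84 CPM in control, a log2 fold change of -0.42 (adjusted p 0.0792, and 0.0119 with the block, edgeR). TRIM25 had -0.29 (adjusted p 0.278, and 0.0411 with the block), and TRAF6 had 0.33 (adjusted p 0.255, and 0.0908 with the block). The median of these genes was -0.14.

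Of 31 interferon-induced genes 25 were tested. Without the block DTX3L (log2 fold change 0.68, adjusted p 0.0121, edgeR) and SAMD9 (1.33, adjusted p 0.0447) rose. OAS3, an oligoadenylate synthetase (-1.33, adjusted p 0.0205), and HERC6 (-0.63, adjusted p 0.0456) were among those that fell. Of the 25, 2 rose (8%) and 3 fell (12%), beside 2.72% and 4.88% of all tested genes. The calls thus went in both directions, and the median of the list was 0.16. Each of the 4 calls named here was lost in at least 2 of the 6 fits that left out 1 library. DTX3L lost it without knockdown replicate 3 (adjusted p 0.0535) or control replicate 3 (0.0519), and OAS3 without knockdown replicate 2 (0.0687) or control replicate 1 (0.0526). SAMD9 kept it only without control replicate 1, and HERC6 only without control replicate 2. HERC6 was also not called with RLE scaling (adjusted p 0.0548), upper quartile scaling (0.0810) or the filter of 1 CPM in 3 libraries (0.0528). With the block 11 of the 25 rose (44%) and 3 fell (12%), beside 11.2% and 14.9% of all tested genes. IFIT1 and IFIT3 were among those that rose, and OAS3 and HERC6 among those that fell.

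The letters GAAANNGAAA, the core of the interferon-stimulated response element, were searched on both strands in the 250 bases before each RefSeq start (GRCh38.p14). They occurred in 3.02% of 35116 RefSeq promoters. Of the 49 helicase genes with an entry 3 held them (6.12%), DDX60, DDX60L and DHX15, and of the interferon-induced genes 15 of 24 (62.5%). The share over all RefSeq promoters counts promoters, while the shares of these lists count genes with a match in any of their promoters. DDX58 had no match in this window. Every match in the family is shown, in capitals with 10 bases on either side, because DDX60 and DDX60L are among the genes that rose with the block. All lie on the gene's own strand, the minus strand.
DDX60, 88 to 79 bases before the start, chr4:168318821-168318850: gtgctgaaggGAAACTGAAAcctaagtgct
DDX60, 53 to 44 bases before the start, chr4:168318786-168318815: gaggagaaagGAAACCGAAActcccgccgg
DDX60L, 80 to 71 bases before the start, chr4:168480553-168480582: gaaaactgcgGAAATCGAAAaggcctcgcg
DDX60L, 50 to 41 bases before the start, chr4:168480523-168480552: gtggagaaaaGAAACCGAAActaactccct
DHX15, 215 to 206 bases before the start, chr4:24584750-24584779: aggatagcctGAAATGGAAAgtgaaggcct
The paralogs DDX60 and DDX60L each held 2 matches, both within 90 bases of the start, while that of DHX15 lay further away. A part of these matches in the changes was not tested. The RefSeq starts of DDX60 and DDX60L lie inside the spans that the deposited table gives for these genes. The match of DDX60 nearer to its start lies inside that span too.

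DHX57 (ENSG00000163214.20, chr2:38797729-38875934, hg38), a DEAH box protein whose cellular role is little described, was the helicase gene called lower. It held 17.2, 17.1 and 18.5 CPM in knockdown and 32.1, 30.3 and 27.4 CPM in control. The knockdown libraries lay close together and all were well below the control libraries. The mean fell from 29.9 ± 2.40 to 17.6 ± 0.80 CPM (SD, n = 3). In edgeR this was -0.76 on the log2 scale (SE 0.14, adjusted p 0.0143). Leaving out 1 library gave log2 fold changes from -0.83 to -0.67. The call was lost without knockdown replicate 2 (adjusted p 0.0712), without knockdown replicate 3 (0.05, at the threshold) and without control replicate 1 (0.0576). The other genes of less defined role were DDX59, DHX32 and DHX40. DDX59 had a log2 fold change of -0.42 (adjusted p 0.105 without and 0.0216 with the block, edgeR) and groups that did not overlap. DHX32 had 0.09 and DHX40 had 0.24, and neither passed in either fit.

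Among the export helicases, DDX39A had the lowest log2 fold change of the family. DDX39A (URH49) and DDX39B (UAP56) load export factors onto spliced messenger RNA, and DDX19A and DDX19B (DBP5) release those factors at the nuclear pore. DDX39A (ENSG00000123136.14, chr19:14408819-14419383, hg38) held 60.9, 53.3 and 42.7 CPM in knockdown and 109, 103 and 64.1 CPM in control. The highest knockdown library, replicate 1, stood below the lowest control library, replicate 3. The log2 fold change was -0.81 (SE 0.21), with pair differences of -0.83, -0.95 and -0.59. It missed the threshold without the block (adjusted p 0.0525, edgeR) and passed it with the block (adjusted p 0.000166).

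DDX39B held 40.4, 42.6 and 47.9 CPM in knockdown and 42.6, 51.2 and 40.2 CPM in control, with full overlap. Its log2 fold change was -0.03 (95% interval -0.36 to 0.29, adjusted p 0.914, edgeR). DDX39B shares 30.8% of its exon bases with other genes, the read-through gene ATP6V1G2-DDX39B among them, and that gene's row held 0 reads in each library. How reads over both genes were counted is not given in the sources used here. DDX19B held 10.8, 8.68 and 10.4 CPM in knockdown and 14.98, 11.3 and 13.8 CPM in control, a log2 fold change of -0.42 (adjusted p 0.185 without and 0.0377 with the block, edgeR). DDX19A held 16.9, 16.9 and 14.5 CPM in knockdown and 19.6, 18.2 and 15.8 CPM in control, with a log2 fold change of -0.15 (adjusted p 0.599). DDX19A and DDX19B share 22.3% and 30.4% of their 50-base words with other genes, so their counts are uncertain. Of the 4 export helicases 0 passed without the block (2 at an unadjusted p under 0.05, 1 in DESeq2, DDX39A, and 0 in limma-voom), and the median was -0.29.

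Of 16 tested partners of these helicases in export, 2 fell without the block and none rose. THOC7, a subunit of the THO complex, which works with UAP56, fell from 49.3 ± 6.74 to 21.05 ± 0.89 CPM, by 1.23 on the log2 scale (SE 0.15, edgeR adjusted p 0.00284). ALYREF, the adaptor that UAP56 loads, fell from 87.7 ± 12.8 to 58.8 ± 4.68 CPM, by 0.58 on the log2 scale (SE 0.14, edgeR adjusted p 0.0444). THOC7 kept its call whichever library was left out. ALYREF was called only in the one without control replicate 3, with adjusted p from 0.0718 to 0.143 in the others, and it was not called by limma-voom (adjusted p 0.0504), with upper quartile scaling (0.0695) or with the filter of 1 CPM in 3 libraries (0.0501). GLE1, which activates DDX19B at the pore, had a log2 fold change of -0.44 (adjusted p 0.0723, and 0.00466 with the block). With the block 5 of the 16 fell and 0 rose, and the median of the list was -0.07. The 2 that fell without the block are 12.5% of the list, beside 4.88% of all tested genes and 8.15% of the genes with abundance like the helicases'. The 5 that fell with it are 31.2%, beside 14.9% and 24.0%.

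The splicing helicases were DHX8 (PRP22), DHX15 (PRP43), DHX16 (PRP2), DHX38 (PRP16), DHX35, DDX23 (PRP28), DDX41, DDX42 and DDX46 (PRP5). They drive the rearrangements of the spliceosome from assembly to release of the product. In edgeR 0 of the 9 passed without the block (3 at an unadjusted p under 0.05, 1 in DESeq2, DDX23, and 0 in limma-voom). With the block 3 fell (DDX23, DDX41 and DHX16), or 33.3%, where 14.9% of all tested genes and 24.0% of those of like abundance fell. The median of the 9 was -0.23. DDX23 (ENSG00000174243.9, chr12:48829764-48852842, hg38), which helps exchange the U1 particle for U6 at the 5′ splice site, held 121, 91.6 and 79.4 CPM in knockdown. In control it held 203, 138 and 144 CPM. The groups did not overlap, and replicate 1 was the highest of both. The fit gave -0.73 on the log2 scale (SE 0.20, adjusted p 0.0577 without and 0.000197 with the block, edgeR), and the pair differences were -0.75, -0.59 and -0.86.

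DDX41, which is also mutated in inherited myeloid neoplasms, had a log2 fold change of -0.40 (adjusted p 0.0986 without and 0.0110 with the block, edgeR), without overlap. DHX16, which readies the spliceosome for the first reaction, had -0.35 (adjusted p 0.201 without and 0.0224 with the block), and its groups overlapped. The other 6 had values from -0.26 (DHX38) to 0.01 (DDX42), with DHX8, DHX15, DDX46 and DHX35 between, and passed in neither fit. DHX8 was lower in each knockdown library than in each control library, and its adjusted p was 0.26. G-patch proteins, the activators of DHX15, DHX16 and related helicases, gave 0 calls of 23 in edgeR without the block (3 at an unadjusted p under 0.05, 0 in DESeq2 and 0 in limma-voom). With the block GPATCH2L rose (0.34, adjusted p 0.0212) and GPKOW, which binds DHX16, fell (-0.48, adjusted p 0.0111). Each is 4.35% of the list, where 11.2% of all tested genes rose and 14.9% fell. CMTR1, the third by p, had -0.29 (adjusted p 0.175, and 0.0505 with the block). The median of the 23 was -0.08.

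Ribosome biogenesis, the largest group with 16 genes, gave 0 calls in edgeR without the block (2 at an unadjusted p under 0.05, 0 in DESeq2 and 0 in limma-voom). Its median on the log2 scale was -0.05, and 0.07 with upper quartile scaling. DDX56 had -0.41 (adjusted p 0.104 without and 0.00964 with the block, edgeR) and DDX27 had -0.31 (adjusted p 0.177 and 0.0497). Both were lower in each knockdown library than in each control library and fell with the block. They are 12.5% of the group, where 14.9% of all tested genes fell with the block. DDX55 also had groups without overlap, at -0.22 (adjusted p 0.274 without and 0.125 with the block). DDX31 and DDX47 stood higher in each knockdown library, at 0.19 and 0.33, and passed in neither fit. DDX47 shares 36.5% of its exon bases with APOLD1. The remaining genes were DDX10, DDX18, DDX21, DDX24, DDX49, DDX50, DDX51, DDX52, DDX54, DHX33 and DHX37, which passed in neither fit and had values from -0.18 (DDX50) to 0.26 (DDX49).

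DDX21 held 641, 705 and 678 CPM in knockdown and 721, 585 and 658 CPM in control, and its paralog DDX50 held 58.6, 61.4 and 54.0 CPM and 69.9, 59.0 and 68.1 CPM. DDX21 had a log2 fold change of 0.04 (95% interval -0.25 to 0.34, adjusted p 0.872, edgeR), and the groups of both genes overlapped. The sign for DDX21 turned to -0.05 without control replicate 2.

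Of the 5 genes of transcription, small RNA and RNP assembly, 0 were called in edgeR without the block (1 at an unadjusted p under 0.05, 0 in DESeq2 and 0 in limma-voom). With the block DDX1 fell, or 20% of the group, where 14.9% of all tested genes fell. DDX1, a part of the transfer RNA ligase complex, held 101, 103 and 89.2 CPM in knockdown and 153, 121 and 135 CPM in control, without overlap. The fitted value was -0.48 on the log2 scale (SE 0.13, adjusted p 0.0602 without and 0.00609 with the block, edgeR). DHX9, which unwinds structured RNA in the nucleus, held 439, 360 and 343 CPM in knockdown and 577, 413 and 413 CPM in control, with overlap. Its log2 fold change was -0.30 (adjusted p 0.322 without and 0.0614 with the block). DDX5 held 904, 813 and 861 CPM in knockdown and 869, 747 and 878 CPM in control, a log2 fold change of 0.05 (95% interval -0.24 to 0.34). DDX17 held 623, 556 and 567 CPM and 687, 588 and 593 CPM, a log2 fold change of -0.10 (95% interval -0.39 to 0.19). DDX20 (Gemin3), a part of the SMN complex, which receives Sm proteins, had -0.07 (adjusted p 0.845).

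Translation and messenger RNA turnover held DDX3X, DDX6, DHX29, DHX34 and DHX36, and 0 of the 5 were called in either edgeR fit, in DESeq2 or in limma-voom, with 0 at an unadjusted p under 0.05. Their median was -0.01 on the log2 scale. DDX3X, which helps scanning through structured leaders, held 490, 366 and 423 CPM in knockdown and 573, 457 and 449 CPM in control, a log2 fold change of -0.21 (95% interval -0.56 to 0.14, adjusted p 0.448, edgeR). DDX6, a repressor of translation in P-bodies, was higher in each knockdown library, with means of 506 ± 10.2 and 459 ± 27.1 CPM and a log2 fold change of 0.14 (adjusted p 0.492). DHX29, a scanning factor, DHX34, which acts in nonsense-mediated decay, and DHX36, which unwinds G-quadruplexes, had values between -0.03 and 0.03.

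DHX30 and DDX28 act on the mitochondrial ribosome. DHX30 had a log2 fold change of -0.34 (adjusted p 0.146 without and 0.0254 with the block, edgeR) and groups without overlap, and DDX28 had -0.19 (adjusted p 0.495). DDX11, a DNA helicase of sister chromatid cohesion that carries a DDX name, had -0.24 (adjusted p 0.438), and 17.7% of its 50-base words occur in other genes. DDX43 and DDX53, the cancer-testis genes HAGE and CAGE, were the tested genes of the germ line group. DDX43 held 6.48, 5.46 and 6.36 CPM in knockdown and 4.46, 4.33 and 5.59 CPM in control, a log2 fold change of 0.34 (adjusted p 0.323). DDX53 had 0.36 (adjusted p 0.335), and neither passed with the block.

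Within a pair of paralogs the ratio of the levels per length sets both genes against each other in the same library. The ratio of DDX39A to DDX39B was 2.75, 2.28 and 1.63 in knockdown and 4.65, 3.66 and 2.91 in control. Every knockdown value was below every control value, with means of 2.22 ± 0.56 and 3.74 ± 0.87 (SD, n = 3). The ratio of DDX21 to DDX50 was 5.87, 6.16 and 6.73 in knockdown and 5.53, 5.32 and 5.18 in control, again without overlap. Over the 6 pairs compared, an exact two-sided permutation test of the log ratio gave p = 0.1 for both, the smallest p that 3 libraries against 3 allow, and 0.3 after Benjamini-Hochberg adjustment. The ratio of DDX60 to DDX60L was 4.04 ± 0.86 in knockdown and 5.36 ± 0.50 in control (exact p = 0.2). That of DDX5 to DDX17 was 2.02 ± 0.05 and 1.83 ± 0.17 (exact p = 0.3), and that of DDX19A to DDX19B was 0.94 ± 0.16 and 0.78 ± 0.13 (exact p = 0.3). This test does not use the pairing by replicate number. Within the 3 replicate pairs the ratios of DDX21 to DDX50, DDX5 to DDX17 and DDX19A to DDX19B were each higher in knockdown in 3 of 3, and those of DDX39A to DDX39B and DDX60 to DDX60L lower in 3 of 3. The ratio of DDX3X to DDX4 rests on 1 to 3 reads of DDX4 in a library and is not read. Sequence that DDX39B, DDX19A and DDX19B share with other genes, given above, leaves the height of their ratios uncertain.

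**Figure D4:**
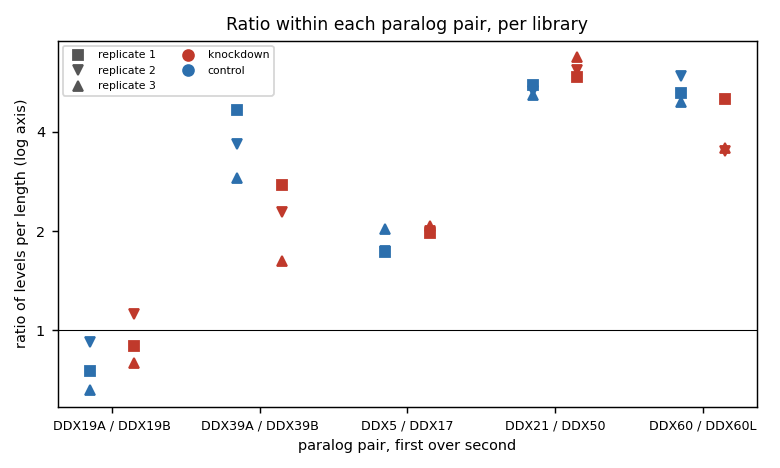
Ratio of the RPKM of the first paralog over the second (log axis) in each library, by replicate (marker) and group (red, knockdown; blue, control). The ratio of DDX39A to DDX39B lies at 1.63 to 2.75 in knockdown and 2.91 to 4.65 in control, while the groups overlap for DDX19A to DDX19B, DDX5 to DDX17 and DDX60 to DDX60L.

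RNA helicases with other names gave the nearest comparison outside the family. Of 19 tested, 0 passed the edgeR test without the block (3 at an unadjusted p under 0.05, 0 in DESeq2 and 0 in limma-voom). With the block 3 rose (15.8%) and 1 fell (5.26%), beside 11.2% and 14.9% of all tested genes. The median of the 19 was 0.01. EIF4A3, the helicase of the exon junction complex, had -0.39 (adjusted p 0.164 without and 0.0126 with the block), and SNRNP200, which unwinds U4 from U6, had -0.33 (adjusted p 0.174 and 0.0574). HELZ had 0.29 (adjusted p 0.194 and 0.0377).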

How the data were processed

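The deposited files held raw counts, whole numbers of reads for each gene in 3 knockdown and 3 control libraries. Per the submitters' processing notes the authors used bcl2fastq, STAR 2.5, featureCounts from Subread 1.6.5 and edgeR 3.20.8 with the hg38 build. The annotation release, the strand setting and the handling of reads over overlapping genes are not given in the sources used here. Of the 54 genes, 47 had the same position in GENCODE 29. Exon overlaps were taken from the exon positions that the deposited table gives.

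Here edgeR 4.0.16 in R 4.3.3 was run on the whole table (TMM scaling, filterByExpr by group, quasi-likelihood test, two-sided, Benjamini-Hochberg over 21101 genes) and tested on simulated data. The biological coefficient of variation was 20.8%, with 4 residual degrees of freedom, and 11.9% with 2 when the fit was blocked on the replicate number. Deviations from the group means over all tested genes correlated at 0.527, 0.357 and 0.334 between libraries with the same number in their labels and at -0.376 to 0.0571 between others, so the numbers were taken to pair the libraries. Deviations within a group cancel out, so these correlations depend on one another. The pairing is thus drawn from the same data that the blocked fit tests. DESeq2 1.42.0 and limma 3.58.1 served as alternatives, with other scalings and filters and with each library left out. CPM and RPKM values were computed with TMM-scaled totals, and intervals from the fitted error.

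The genes and lists were chosen with earlier results of these data known. Values in every library are given for genes called without the block, for the 3 genes of smallest p in each direction, for the 3 highest levels per length and for paralog pairs, and from each partner list the 3 genes of smallest p are named. A gene that this rule names is not reported here. DDX1, IFIH1, IFIT1 and IFIT3 were added after their values were seen. Motif II was planned as a search of proteins and was read from GENCODE 29 codons instead. The search of promoters was not in the plan, and its windows were shown with the results known. RefSeq promoters were not found for DHX33, DHX58, DDX49, DDX52 and DDX18.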

Additional observations from a re-analysis of the deposited data

How the results depend on the processing

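The number of helicase genes called higher was 1. It was 3 with the replicate block, 2 with upper quartile scaling, 2 without the filter on low counts, 2 with DESeq2, and 0 to 2 when 1 library was left out. The number called lower was 1, and was 11 with the replicate block, 4 without the filter, 3 with DESeq2 and 0 to 2 with 1 library left out. RLE scaling, a filter of 1 CPM in 3 libraries and limma-voom moved neither count. Over all tested genes the calls with 1 library left out ran from 168 higher and 329 lower (without knockdown replicate 2) to 500 and 923 (without control replicate 2).

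The median log2 fold change of the helicase genes, -0.0917, became 0.0311 with upper quartile scaling and -0.0447 with the 1 CPM filter, and ranged from -0.159 to -0.0163 with 1 library left out. The named genes here are the tested genes with values in every library and the helicase genes called in either edgeR fit. Partner genes called without the block are included. Among these named genes signs turned only for those with no call in any fit. With upper quartile scaling DDX17 had 0.0247 and DDX39B had 0.0914, and with the 1 CPM filter DDX39B had 0.0171. With 1 library left out DDX5 ranged from -0.0403 to 0.118, DDX17 from -0.158 to 0.0187, DDX21 from -0.0489 to 0.157 and DDX39B from -0.109 to 0.0587. Outside this set the sign of further helicase genes without a call also turned. Examples are DHX33 in 6 of the alternative fits and DDX51 and DHX29 in 5 each. The cause was not tested. The replicate block turned no sign. Of the values of the named genes with 1 library left out, 152 kept direction and side of the threshold, 31 lost a call, 4 gained one and 5 turned. Counts limit DDX4 and DDX25, with at most 6 reads in a library.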
